A study of Mus musculus with 3 samples.

Results

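Migratory dendritic cells that express Ccr7 were followed in mouse spleen by single-cell RNA sequencing of splenocytes, with RNA molecules counted by their barcodes, or unique molecular identifiers (UMIs). The cells were chosen by their own transcripts: at least 1 UMI each of Cst3 and Fscn1, at least 3 UMIs summed over Fscn1, Ccr7, Cacnb3, Nudt17, Ccl22 and H2-M2, and 0 UMIs of the B cell gene Cd79a and the T cell gene Cd3e. This gate found 92 cells among the 47453 cells kept in the series. They lay 17 in the C57Bl/6 control library, 24 in the C57Bl/6 AngII library and 51 in the B6.SLE123 library. Since the gate used these 9 genes, their levels in the members are given as a description and were not tested.

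Conventional dendritic cells take up antigen in tissue in an immature state. On maturation they switch on the receptor CCR7, follow its chemokine ligands into T cell zones and present antigen there, and they carry out much of this program with or without an infection. In spleen, 2 lineages mature in this way, the cDC1 that specialise in cross-presentation and the more diverse cDC2. The mature cells share an actin-bundling protein, fascin (Fscn1), and high noncanonical NF-κB activity.

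Each of the 3 libraries pooled 2 conditions, with spleens of 3 mice in each, and the cells had been depleted of T cells with CD3 microbeads. Animals were 12 to 14 weeks old. The control library held C57Bl/6 mice, sham-operated males and females. The AngII library held C57Bl/6 mice with minipumps that released angiotensin II for 2 weeks from 10 weeks of age, with or without 2HOBA, a scavenger of isolevuglandins. The SLE123 library held mice of the lupus-prone strain B6.SLE123, some of which had received 2HOBA for 6 weeks from 7 weeks of age. The control library therefore differed from the SLE123 library in strain, in the sham operation of its males and in the 2HOBA that some B6.SLE123 mice received. Since the study used female B6.SLE123 mice, the mix of sexes differed too. From the AngII library the control differed in angiotensin II and in the 2HOBA of some mice, and the title of the AngII library names no sex. These differences cannot be told apart here. The treated and untreated cells of a library were not separated, because the labels do not name the hashtag of a condition. With 1 library per group, differences between libraries carry no test. Their intervals cover counting error, not the spread between mice.

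The 3 libraries held 15957, 13982 and 17514 kept cells in the order control, AngII and SLE123, the order used throughout. Median depth over all kept cells was 1792, 2771 and 1956 UMIs. The members had medians of 2030, 2307 and 1637 UMIs and 960, 769.5 and 724 genes detected, with single cells between 521 and 11682 UMIs. Median mitochondrial shares of the members were 1.03%, 0.49% and 0.56%. The libraries shared between 415 and 496 cell barcodes in pairs. No barcode was a member in more than 1 library, and 2 of the SLE123 members carried a barcode that also occurred in the AngII library.

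All 6 markers of the gate were found in the members of each library (plot of depth against summed marker UMIs). Ccr7, the chemokine receptor that guides these cells, had 50 UMIs in 14 of 17 control members, 77 UMIs in 19 of 24 AngII members and 184 UMIs in 41 of 51 SLE123 members. As counts per 1000000 UMIs of the members (CPM), that was 1434, 925 and 1519. It was 132, 163 and 82.6 CPM in all other kept cells, where B cells also carried it. Fscn1 stood at 2037, 2630 and 2823 CPM in members and at 1.8, 1.64 and 4.17 CPM in all other kept cells. Of cells with UMIs of both B cell genes Cd79a and Ms4a1, at a median depth of 1908, 2898 and 2196 UMIs, 0.09%, 0.232% and 0.631% had a UMI of Fscn1, whereas 22.9%, 34.9% and 19.4% had one of Ccr7. These are values the gate itself used, and Fscn1 was required of every member.

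The other markers were sparser. Cacnb3, a calcium channel beta subunit, was seen in 10 of 17, 10 of 24 and 29 of 51 members, at 574, 192 and 495 CPM. H2-M2, a nonclassical class I gene, was seen in 8, 8 and 20 members. A single control cell gave 25 of its 54 control UMIs. Nudt17, a Nudix hydrolase gene, was seen in 4, 9 and 22 members. Ccl22, a chemokine that attracts regulatory T cells, was seen in 2, 3 and 3 members, and 1 SLE123 cell gave 17 of the 20 UMIs of its library. Members just inside the limit, with exactly 3 summed UMIs, numbered 2, 3 and 7. Cells just outside it, with 2, numbered 1, 1 and 4. A UMI of Cd79a kept a further 13, 8 and 13 cells out.

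**Figure D1:**
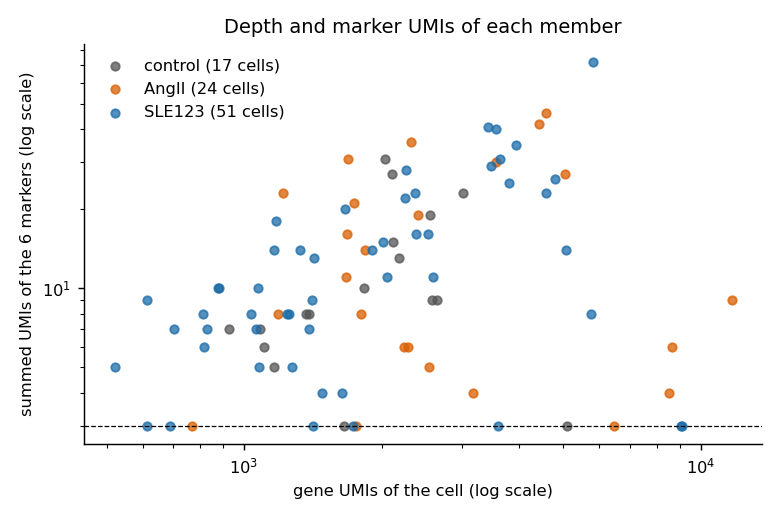
Each point is 1 of the 92 members, coloured by library. The x axis gives its gene UMIs and the y axis its summed UMIs of the 6 markers, both on log scales, and the dashed line marks the limit of 3. Members range from 929 to 5096 UMIs in the control library, 771 to 11682 in AngII and 521 to 9117 in SLE123. On the line lie 12 of the points.

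Migratory cells took 0.107% of the kept cells of the control library (17 of 15957, exact 95% interval 0.0621 to 0.171). They took 0.172% of the AngII library (24 of 13982, 0.11 to 0.255) and 0.291% of the SLE123 library (51 of 17514, 0.217 to 0.383). The SLE123 share was 2.73-fold the control share, with an interval of the ratio from 1.55 to 5.05. The AngII share was 1.61-fold the control share, with an interval from 0.83 to 3.2 that includes no difference. Both ratios share the control library. With cells of up to 1 UMI of Cd79a and Cd3e let in, the shares were 0.138%, 0.2% and 0.297% (22, 28 and 52 members). The SLE123 share was then a smaller multiple of the control share.

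Because a deeper cell more easily reaches 3 marker UMIs, every cell was also thinned to 1000 UMIs, which left out 1, 1 and 10 shallower members. The shares were then 0.0824%, 0.115% and 0.176% (12, 15 and 27 members). The SLE123 share was 2.14-fold the control share after thinning (1.05 to 4.63) and the AngII share 1.39-fold (0.608 to 3.26). The other dendritic cell gates held 0.169%, 0.257% and 0.354% of kept cells for cDC1 and 0.389%, 0.436% and 0.582% for cDC2, both highest in the SLE123 library. A stricter cDC2 gate, described below, held 0.157%, 0.0858% and 0.148% and was highest in the control library. A share says nothing of the number of cells in a whole spleen.

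Within a library, the members were spread over all 6 hashtags. By hashtag, C0301 to C0306, the control library held 1, 3, 1, 3, 2 and 7 members. The AngII library held 4, 1, 4, 5, 4 and 6, and the SLE123 library 5, 11, 7, 14, 9 and 5. As shares of the hashtag's kept cells these ran from 0.0324% to 0.296% in the control library, from 0.0533% to 0.265% in the AngII library and from 0.151% to 0.491% in the SLE123 library. The ranges overlapped. Hashtag C0306 of the control library, at 0.296%, lay above 3 of the 6 SLE123 hashtags. Without it the control share was 0.0736% and the SLE123 to control ratio on the log2 scale was 1.98, against 1.45 with it.

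**Figure D2:**
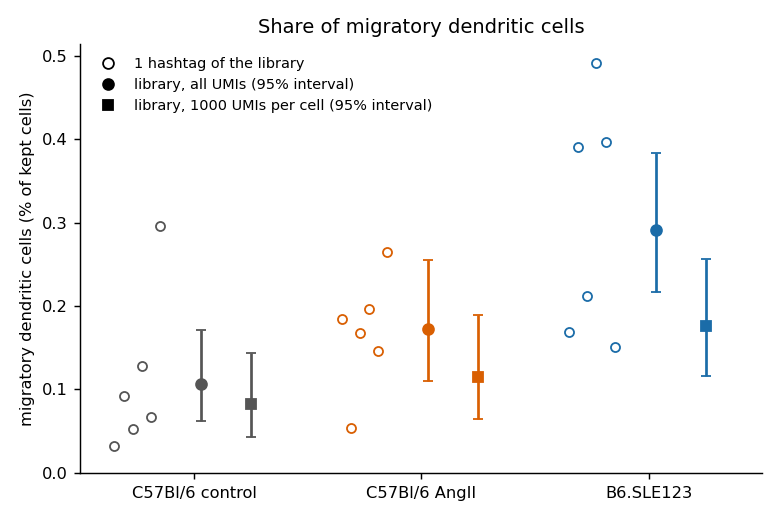
The y axis gives migratory dendritic cells as a percent of kept cells, for each library along the x axis. Open circles are the 6 hashtags of a library, the filled circle is the whole library and the square is the library with each cell thinned to 1000 UMIs, both with exact 95% intervals. The SLE123 circle sits at 0.291%, above the control at 0.107%, and the hashtags of the libraries overlap.

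The members were next compared with dendritic cells of the same libraries that had no UMI of Fscn1. A cDC1 gate (at least 3 UMIs over Xcr1, Clec9a, Cadm1, Snx22 and Tlr3) held 27, 36 and 62 cells. A cDC2 gate (at least 3 over Cd209a, Clec10a, Clec4a4, Mgl2, Sirpa and Esam) held 62, 61 and 102. Both gates asked for Cst3 and for 0 UMIs of Fscn1, Cd79a, Cd3e, Siglech and Ly6c2, and no member lay in either. UMIs were summed per library and class and tested with edgeR's quasi-likelihood test with library as a block (n = 3 libraries), with Benjamini-Hochberg adjustment over all genes tested and the gate genes left out. Log2 fold changes below are from this fit. The values after ± are approximate standard errors, the absolute log2 fold change divided by the square root of the test's F statistic.

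Of 2238 genes tested against cDC1, 378 were higher in the migratory cells (16.9%) and 281 lower (12.6%). Of 3511 tested against the cDC2 gate, 377 were higher (10.7%) and 349 lower (9.94%). Without the SLE123 library, which holds most members, these were 178 and 81 genes against cDC1 and 155 and 135 against cDC2. Of the 2168 genes tested in both comparisons, 248 were higher in both, which was 65.8% of the cDC1 calls and 72.7% of the cDC2 calls, and 86 were lower in both (36.3% and 50%). Both comparisons use the same member sums, so their overlap is not independent. The sums weight each member by its UMIs, and some of the deepest members, described with the library contrasts below, carried few marker UMIs.

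The cDC2 gate was not pure. Of its 225 cells, 162 had a UMI of Csf1r, C1qb, Fcgr4, Ace or S100a9, and its 15 monocyte and macrophage markers summed to 4945, 5085 and 7807 CPM, against 57.4, 72.1 and 74.3 CPM in the members, where 8 of the 15, C1qa, C1qb, C1qc and Ccr2 among them, were at 0. The cDC1 gate held 200, 1079 and 653 CPM of these markers, and the 4 that could be tested against it, Lyz2, C1qa, C1qb and C1qc, were lower in the members. A stricter cDC2 gate with 0 UMIs of those 5 genes was therefore added after the data were seen. It held 25, 12 and 26 cells. Against it 1842 genes were tested, with 248 higher (13.5%) and 141 lower (7.65%), and 184 genes were higher in all 3 comparisons. Without the SLE123 library these fell to 102 and 45, and without the AngII library there were 291 and 164. Results against cDC1 come first below, and those that depend on the cDC2 gate are named.

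**Figure D3:**
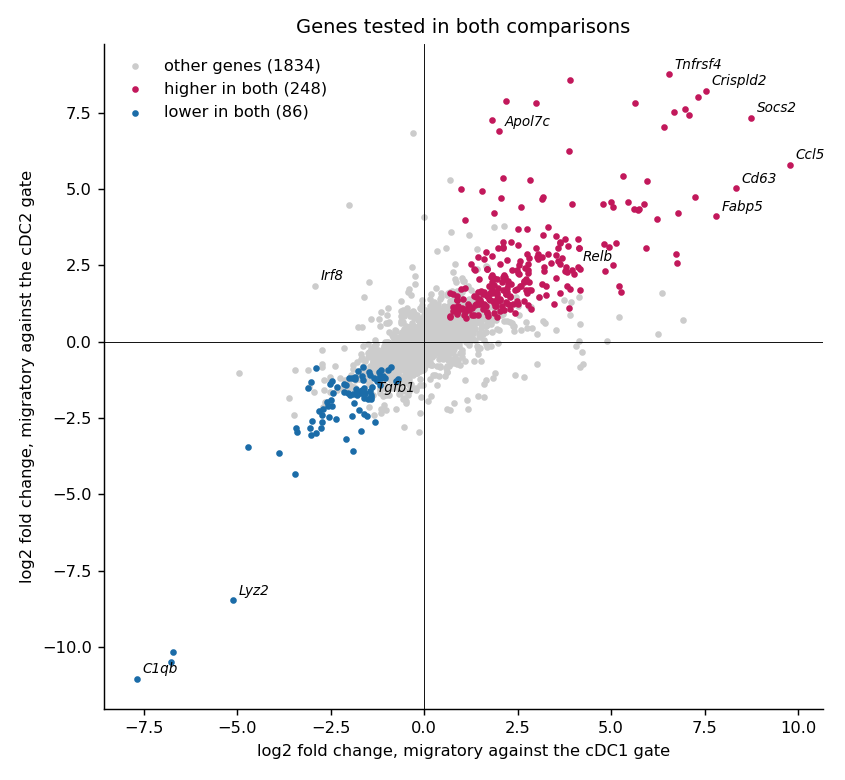
Each point is 1 of 2168 genes tested in both comparisons. The x axis gives the log2 fold change of migratory cells against the cDC1 gate and the y axis against the cDC2 gate. The 248 genes higher in both are magenta and the 86 lower in both are blue. Ccl5, Socs2 and Tnfrsf4 lie at the upper right, C1qb and Lyz2 at the lower left, and Irf8 is lower than in cDC1 and higher than in cDC2.

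The genes that set the members furthest apart from cDC1 were Ccl5, Socs2, Cd63, Fabp5 and Crispld2. Ccl5, the chemokine RANTES, stood at 10240, 4877 and 6628 CPM in members, at 6.68, 10.5 and 3.96 CPM in cDC1 and, in the cDC2 gate, at 174 and 67.2 CPM in the AngII and SLE123 libraries, with 51 UMIs in the control library. Every member sum exceeded every sum of the other classes, and the log2 fold change was 9.78 ± 0.43 against cDC1 (edgeR adjusted p = 3.61e-16) and 5.80 ± 0.34 against cDC2 (adjusted p = 4.66e-16). Ccl5 was present in 16 of 17, 22 of 24 and 41 of 51 members and in 2.6%, 3.11% and 2.55% of the B cells. Fabp5, a fatty acid binding protein, was at 3098, 937 and 2782 CPM in members and at 0, 20.9 and 3.96 CPM in cDC1 (log2 fold change 7.81 ± 0.47, edgeR adjusted p = 7.08e-13). The AngII sum of Fabp5 was the lowest of the 3 yet above both gates in every library.

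Socs2, a suppressor of cytokine signaling, had 96 UMIs in members and 0 in cDC1, at least 79.4-fold higher with 3 counts over the group as the floor. Its member levels were 344, 216 and 545 CPM. Cd63, a tetraspanin of endosomes, had 204 UMIs in members and 1 in cDC1. Its member levels of 803, 709 and 966 CPM were close to each other. Crispld2, a secreted protein, had 37 UMIs in members and 0 in both gates (at least 30.6-fold above cDC1 and 49.1-fold above cDC2).

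The genes furthest above the cDC2 gate included cell surface molecules. Tnfrsf4, the co-stimulatory receptor OX40, had 57 UMIs in members and 0 in the cDC2 gate (at least 75.7-fold), with 316, 228 and 223 CPM in the members. Cd200, whose product engages an inhibitory receptor on myeloid cells, had 27 against 0 (at least 35.8-fold), with 258, 96.1 and 82.5 CPM in the members. Mdk, the growth factor midkine, had 4, 19 and 12 UMIs in the members against 0, and all 19 of the AngII library came from 1 cell. Lad1, an anchoring filament protein gene, had 30 against 0 (at least 39.8-fold). Strip2 also had 30 UMIs against 0, but it was present in cDC1 at 33.4, 47.1 and 7.92 CPM, so its contrast with cDC1 was smaller (log2 fold change 2.19 ± 0.64, edgeR adjusted p = 0.0105).

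Anxa3, an annexin, had 140 UMIs in members and 3 in the cDC2 gate (log2 ratio 7.54, interval 5.96 to 9.83). Zmynd15, a zinc finger gene, had 65 against 1 (8.02, interval 5.49 to 13.34). An entry of the symbol Pakap, which more than 1 entry of the files carries, had 51 against 0, and Gm10851, an antisense gene whose reads the sources used here do not say were counted by strand, had 27 against 0. These and the genes of the paragraph before were higher in the members than in the cDC2 gate in all 3 libraries.

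**Figure D4:**
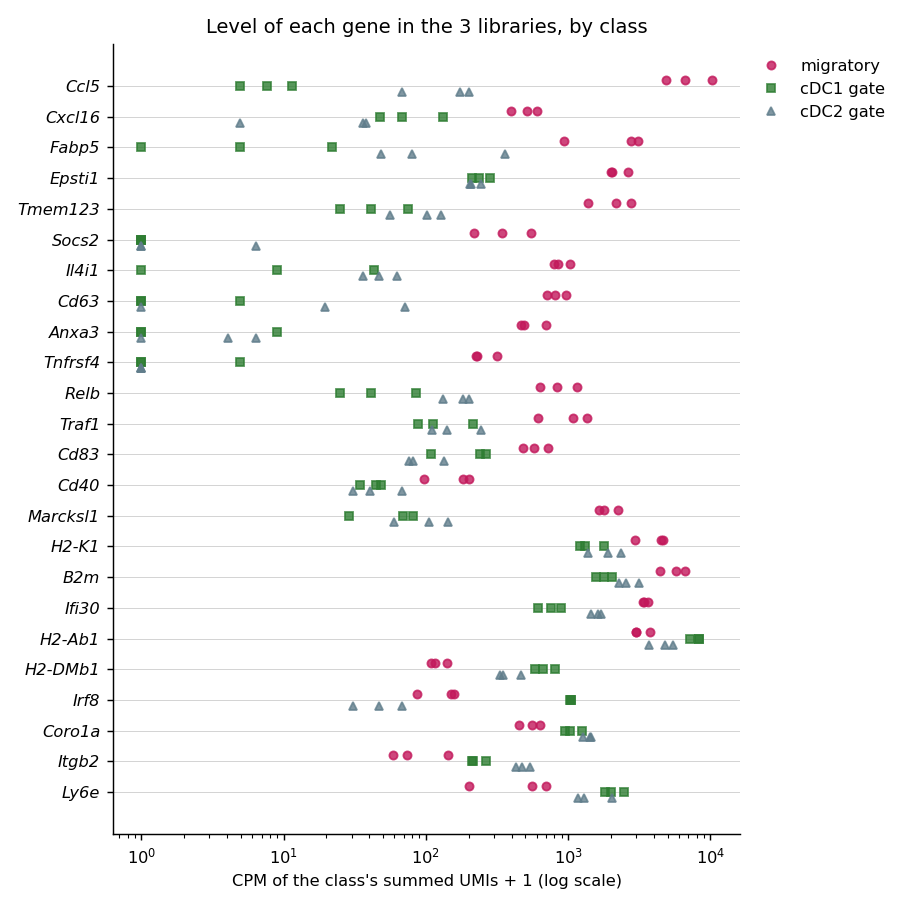
The x axis (log scale) gives CPM of the summed UMIs plus 1, for each gene on the y axis. Circles are migratory cells, squares the cDC1 gate and triangles the cDC2 gate, with 1 symbol per library. Circles of Ccl5, Fabp5, Socs2, Cd63 and Anxa3 lie to the right of both gates in all 3 libraries. Circles of H2-DMb1, Coro1a, Itgb2 and Ly6e lie to the left of both.

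A list of 24 genes of the mature dendritic cell program was drawn up with the profile of these cells known, so its direction is not independent evidence. The other lists below, NF-κB and class I among them, were also chosen with earlier results of these data known. All 22 members of the list that could be tested against cDC1 were higher (median log2 fold change 4.45, against -0.05 over all genes tested). All 23 tested against the cDC2 gate were higher (4.66, against -0.08), as were all 20 tested against the stricter gate (4.26). Besides the genes above, Il4i1, a secreted L-amino acid oxidase, stood at 1033, 793 and 842 CPM in members and at 0, 41.9 and 7.92 CPM in cDC1 (5.61 ± 0.44, edgeR adjusted p = 6.03e-11). Tmem123, a membrane mucin, was at 2754, 1381 and 2171 CPM against 40.1, 73.3 and 23.7 CPM in cDC1 (5.44 ± 0.35, edgeR adjusted p = 2.16e-12). Apol7c, an apolipoprotein L gene, was closer to cDC1 (2.00 ± 0.28) than to cDC2 (6.89 ± 0.42), because cDC1 carried 574, 623 and 206 CPM of it. Tnfrsf9 was not tested, with 14 UMIs in the members and 0 in both gates.

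Among 11 further chemokine genes, Ccl5 and Cxcl16 were higher than in cDC1 and in cDC2. Cxcl16, a membrane-bound chemokine, was at 516, 396 and 603 CPM in members, 46.7, 131 and 67.3 CPM in cDC1 and 3.93, 36.7 and 35 CPM in the cDC2 gate (2.60 ± 0.34 against cDC1, edgeR adjusted p = 1.10e-06). Cxcl9, which attracts activated T cells, was lower than in cDC1, at 0, 0 and 24.8 CPM against 561, 482 and 186 CPM (-4.69 ± 0.58, edgeR adjusted p = 4.10e-07). Ccl6 was lower than in the cDC2 gate. Ccl17, which shares a receptor with Ccl22, had a UMI in 1 member of 92.

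Of 15 other chemokine and positioning receptors, 9 had 0 UMIs in the members, among them Ccr1, Ccr2, Cxcr3 and S1pr1. Gpr183, an oxysterol receptor that positions dendritic cells in spleen, was the one receptor of the list that passed the test as higher. It stood at 172, 372 and 239 CPM against 20, 10.5 and 0 CPM in cDC1 (4.83 ± 0.56, edgeR adjusted p = 1.17e-07) and 59, 88.7 and 40.3 CPM in the cDC2 gate (2.30 ± 0.37). Ccr2, the receptor by which monocytes leave bone marrow, and Cx3cr1 were lower than in the cDC2 gate, where monocyte genes were also present, and were not tested against the stricter gate. At the depth of the members, 0 UMIs in 92 cells does not show that a receptor is absent.

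Cytoskeletal and adhesion genes split. Of 21 listed, 20 were tested against cDC1, with 7 higher and 4 lower. Marcksl1, which crosslinks actin beneath the membrane, was at 1778, 1658 and 2245 CPM against 80.1, 68.1 and 27.7 CPM in cDC1 (5.06 ± 0.34, edgeR adjusted p = 4.39e-12). Its relative Marcks (1.71 ± 0.26), the adhesion molecule Icam1 (1.53 ± 0.31), the intermediate filament gene Vim (1.44 ± 0.33), the actin-binding Lsp1 (1.17 ± 0.24) and the myosin Myo1g (2.10 ± 0.37) were also higher, and each was higher than in the cDC2 gate and the stricter gate too. Coro1a, an actin regulator, was lower, at 631, 553 and 454 CPM against 1035, 1257 and 950 CPM (-1.04 ± 0.25, edgeR adjusted p = 0.00209). Lower as well were the integrin chains Itgb2 (-1.54 ± 0.40) and Itgb7 (-1.99 ± 0.52) and the GTPase Rac2 (-1.31 ± 0.44), again in all 3 comparisons. Itga4, another integrin chain of the list, did not pass (0.42 ± 0.27, edgeR adjusted p = 0.256).

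Of 11 co-stimulatory genes, 5 were tested against cDC1, with Cd83, Cd40 and Icosl higher and Cd86 lower. Cd83, a maturation marker that stabilises surface MHC class II, stood at 717, 480 and 570 CPM against 107, 262 and 241 CPM (1.45 ± 0.30, edgeR adjusted p = 4.41e-04). Cd40, the receptor for T cell help, had 7, 8 and 22 UMIs in members, where its AngII and SLE123 levels were 96.1 and 182 CPM, and stood at 33.4, 47.1 and 43.5 CPM in cDC1 (1.82 ± 0.45, edgeR adjusted p = 0.00272). Icosl, the ligand of ICOS, was higher by 2.54 ± 0.43. Cd86, which binds CD28, stood at 57.4, 48 and 66 CPM in members and 174, 183 and 218 CPM in cDC1 (-1.76 ± 0.43, edgeR adjusted p = 0.00225), and at 47.2, 42.8 and 51.1 CPM in the cDC2 gate, where the difference did not pass (0.48 ± 0.55, adjusted p = 0.611). Cd80 was too sparse to test, at 0, 24 and 49.5 CPM.

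Of 17 inhibitory and regulatory genes, 4 were tested against cDC1. Cd200 was higher (2.99 ± 0.75), and Tgfb1 (-1.43 ± 0.35) and Havcr2, which encodes the receptor TIM-3 (-2.72 ± 0.45), were lower. Tgfb1 was lower in all 3 comparisons. The checkpoint ligand Cd274 had 7, 5 and 8 UMIs in the members and stood at 66.9, 49 and 88.7 CPM in the cDC2 gate, a difference that did not pass (0.55 ± 0.46, edgeR adjusted p = 0.459). Il10, Ido2 and Itgb8 had 0 UMIs in the members and also in the stricter cDC2 gate.

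Most NF-κB genes that could be tested against cDC1 were higher, and fewer passed against the cDC2 gates. Of 22 listed, 15 were tested against cDC1, with 13 higher and 0 lower (median 2.30), and Nfkb1 and Traf2 not called. Against the cDC2 gate 12 of 20 were higher and 0 lower, and against the stricter gate 7 of 13 were higher and Nfkb1 lower. Unadjusted p under 0.05 held for 487 higher and 390 lower genes of all tested against cDC1 and for 535 and 557 against the cDC2 gate. Relb, the partner of the noncanonical pathway, stood at 1147, 637 and 834 CPM in members, 40.1, 83.8 and 23.7 CPM in cDC1 and 130, 181 and 199 CPM in the cDC2 gate (4.10 ± 0.36 against cDC1, edgeR adjusted p = 7.34e-10). Nfkb2, whose product pairs with RelB, was higher by 2.47 ± 0.47 and 1.34 ± 0.40. The signaling adaptor Traf1 was higher by 2.79 ± 0.33, and the inhibitors Nfkbia and Tnfaip3 by 1.70 ± 0.26 and 2.73 ± 0.53 against cDC1. Each of these 5 was also higher than in the stricter gate.

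The RefSeq promoters of these genes (250 bases upstream of the gene start, GRCm38.p6) were searched on both strands for GGGA and TTCC with any 2 bases between them, a core form of the NF-κB site. It occurred in 397 of 32851 promoters of all genes (1.21%). Of the 22 listed NF-κB genes 19 had a promoter in the table, and Nfkb2 and Nfkbia held the letters (3 of 25 promoters, since Nfkb2 has more than 1). None of 18 matched maturation genes and none of 8 matched gate genes did. The promoters of Nfkbia and of 1 start of Nfkb2 are shown because both genes were higher in the members. B2m of the class I list, the match among its 16 genes with a promoter, is shown beside them. Each runs 5′ to 3′ on the gene's strand up to the base before its start, with the matching letters in capitals, and the Nfkbia and B2m letters read as the motif on the opposite strand. A match of letters is not evidence of binding.
Nfkbia (chr12:55492648-55492897, minus strand): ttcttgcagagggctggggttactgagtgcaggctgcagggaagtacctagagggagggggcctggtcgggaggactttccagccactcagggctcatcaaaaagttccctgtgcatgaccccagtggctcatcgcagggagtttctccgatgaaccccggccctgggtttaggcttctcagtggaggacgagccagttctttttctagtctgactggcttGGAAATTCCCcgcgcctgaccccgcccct
Nfkb2 (chr19:46305680-46305929, plus strand): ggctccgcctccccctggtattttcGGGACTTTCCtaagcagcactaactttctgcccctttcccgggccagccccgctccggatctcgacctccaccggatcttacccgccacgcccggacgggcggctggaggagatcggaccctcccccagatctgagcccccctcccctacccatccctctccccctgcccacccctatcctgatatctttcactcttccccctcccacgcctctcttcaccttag
B2m (chr2:122147437-122147686, plus strand): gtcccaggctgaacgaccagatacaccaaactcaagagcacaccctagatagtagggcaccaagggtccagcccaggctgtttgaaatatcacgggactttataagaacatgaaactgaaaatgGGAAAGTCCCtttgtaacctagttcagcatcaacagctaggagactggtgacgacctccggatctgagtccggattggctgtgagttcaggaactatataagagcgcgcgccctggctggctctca

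Class I and class II genes are given in turn, and the difference between the lists was not tested. Of 18 class I genes, 16 were tested against cDC1, with 10 higher and 0 lower (median 0.83). Against the cDC2 gate 13 of 16 were higher and against the stricter gate 12, with 0 lower in either. B2m, the light chain of class I, stood at 6683, 4432 and 5762 CPM in members and 1776, 1565 and 2038 CPM in cDC1 (1.60 ± 0.24, edgeR adjusted p = 7.35e-06). The heavy chain H2-K1 was at 4676, 2955 and 4499 CPM against 1308, 1209 and 1777 CPM (1.44 ± 0.24). The peptide transporter gene Tap1 did not pass (-0.27 ± 0.31, edgeR adjusted p = 0.558), nor did the immunoproteasome subunit Psmb9 (-0.56 ± 0.25, adjusted p = 0.1). H2-Q4, H2-Q6 and H2-Q7 were among the genes called, and reads of these near-identical copies cannot be told apart with certainty.

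Of 14 class II genes in the files, all were tested against cDC1, with 3 higher and 4 lower (median -0.55, against -0.05 over all genes tested), and against the cDC2 gate 1 was higher and 3 lower (median -0.11, against -0.08). The beta chain H2-Ab1 stood at 2983, 3771 and 3005 CPM against 8331, 7204 and 8363 CPM (-1.33 ± 0.25, edgeR adjusted p = 1.98e-04). The chains of the peptide editor H2-DM were lower (H2-DMa -1.63 ± 0.28, H2-DMb1 -2.52 ± 0.32), as was March1, the ligase that turns surface class II over (28.7, 48 and 24.8 CPM against 154, 204 and 237 CPM, -2.61 ± 0.48). All 4 were also lower than in the stricter cDC2 gate, and all but H2-Ab1 were lower than in the cDC2 gate. Ifi30, a lysosomal thiol reductase, was higher in all 3 comparisons, at 3356, 3387 and 3665 CPM against 761, 895 and 617 CPM in cDC1 (2.18 ± 0.25). H2-DMb2 (2.00 ± 0.32) and the protease Ctss (0.64 ± 0.24) were higher than in cDC1 and did not pass against the stricter gate. The invariant chain gene Cd74 did not pass in any of the 3 comparisons (-0.61 ± 0.30 against cDC1, edgeR adjusted p = 0.124).

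Of 16 antigen uptake receptors in the files, 10 had 0 UMIs in the members, including the Fc receptors Fcgr1, Fcgr2b, Fcgr3 and Fcgr4, the mannose receptor Mrc1, the scavenger receptor Cd36 and the receptors for dying cells Mertk and Axl. Ly75, the lectin DEC-205, had 7, 5 and 27 UMIs in the members. It did not pass against cDC1 (0.68 ± 0.41, edgeR adjusted p = 0.213) and was above the cDC2 gate (0, 0 and 10.8 CPM, 5.28 ± 0.67, adjusted p = 8.95e-08). Of the list, 7 were lower than in the cDC2 gate, and none of those could be tested against the stricter gate. That stricter gate was itself at 0 UMIs for Fcgr1, Fcgr3, Fcgr4, Mrc1, Cd36 and Mertk.

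Of 20 cytokine and cytokine receptor genes, 6 were tested against cDC1. Il15, which sustains memory T and NK cells, stood at 28.7, 108 and 149 CPM against 13.4, 0 and 15.8 CPM (3.30 ± 0.82, edgeR adjusted p = 0.00281) and was higher in all 3 comparisons. Il21r (2.81 ± 0.63) and Csf2rb (1.86 ± 0.45) were higher than in cDC1 and Csf2ra lower (-1.08 ± 0.37). Il12b, a subunit shared by interleukins that direct T cell responses, was not tested. It stood at 28.7, 120 and 41.3 CPM in members, 33.4, 0 and 3.96 CPM in cDC1 and 0 in the cDC2 gate. Il12a, Il6, Il23a and Il27 had 0 UMIs in the members and also in the stricter cDC2 gate.

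Lineage genes differed with the class compared. All 6 cDC1 genes tested against cDC1, itself gated on other cDC1 genes, were lower, whereas 2 of 4 tested against the cDC2 gate were higher and 0 lower. Of 14 cDC2 genes, 2 of 4 tested against cDC1 were higher and 0 lower, 3 of 6 tested against the cDC2 gate were lower, and 1 of 2 against the stricter gate was lower. Irf8, the factor that maintains cDC1, stood at 86.1, 156 and 149 CPM in members, 1055, 1037 and 1045 CPM in cDC1 and 66.9, 45.9 and 29.6 CPM in the cDC2 gate. It was lower than in cDC1 (-2.92 ± 0.31, edgeR adjusted p = 2.40e-08) and higher than in cDC2 (1.84 ± 0.44, adjusted p = 0.00177). Naaa, a lysosomal amidase, had 3 UMIs in the members (-6.46 ± 0.48 against cDC1). The genes furthest below cDC1 had 0 UMIs in the members: Rab7b, a late endosomal GTPase (at least 15.6-fold lower), Gpr141b, annotated as a lincRNA (at least 10.5-fold), Gatm, a creatine synthesis enzyme (at least 9.68-fold), P2ry14, a receptor for UDP-sugars (at least 8.06-fold), and Dynlt1a, a dynein light chain with near-identical copies (at least 7.26-fold).

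Genes far below the cDC2 gate were genes of monocytes and macrophages that this gate also held: the complement genes C1qa, C1qb and C1qc, Fcgr4, Clec4a3, Slpi, Lyz2, Pilra and Slc40a1. C1qb had 0 UMIs in members against 1098 (at least 91.9-fold lower) and Lyz2 had 1 against 1984. With DESeq2 in place of edgeR, C1qb (adjusted p = 0.0502) and Fcgr4 (adjusted p = 0.307) did not pass. Zeb2, a factor of cDC2 and monocytes, was higher than in cDC1 (2.43 ± 0.69) and lower than in the cDC2 gate (-1.10 ± 0.38), and against the stricter gate it did not pass (0.45 ± 0.47).

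All 10 dendritic cell identity genes in the files had UMIs in the members. None was higher than in cDC1, and Cd24a and Jaml were lower. Against the cDC2 gate 4 of 10 were higher and 1 lower, and against the stricter gate 3 of 9 were higher and 1 lower. Itgax, which encodes CD11c, had the lowest log2 fold change of the list against either cDC2 gate. It had UMIs in 12 of 92 members. Flt3, the growth factor receptor of dendritic cells, stood at 316, 240 and 182 CPM against 247, 236 and 249 CPM in cDC1 (-0.10 ± 0.31, edgeR adjusted p = 0.849), Batf3 at 344, 372 and 429 CPM against 354, 262 and 348 CPM, and Zbtb46, a factor of conventional dendritic cells, at 86.1, 60.1 and 74.3 CPM against 113, 78.5 and 119 CPM. Most members carried no gene that gates either subset. Of the 17, 24 and 51 members, 13, 12 and 37 had no UMI of a cDC1 or cDC2 gate gene. Those with a UMI of a cDC2 gate gene numbered 3, 9 and 11, those with a cDC1 gate gene 1, 3 and 4, and 1 SLE123 member had both.

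Genes of other cell types were measured in the members as well. The 12 B cell markers summed to 373, 360 and 231 CPM in members against 9819, 8633 and 9931 CPM in all other kept cells, with Igkc at 1 UMI per library. The 8 neutrophil markers summed to 28.7, 204 and 107 CPM, the 8 NK cell markers to 143, 216 and 140 CPM and the 6 plasma cell markers to 115, 48 and 57.8 CPM. The 8 erythroid and platelet markers summed to 0, 24 and 8.25 CPM. The 10 genes of plasmacytoid dendritic cells summed to 316, 192 and 644 CPM, and none of the 3 tested against the cDC2 gate passed. All 6 basophil and mast cell markers were at 0. The 10 T cell markers summed to 86.1, 120 and 215 CPM, with 6 of them, Cd3g and Trbc2 included, at 0. In the control and SLE123 members all of this was Tcf7, a transcription factor of T cells and other lymphocytes, and in AngII members 6 UMIs were Tcf7, with 2 of Cd3d and 1 each of Lck and Trac. Tcf7 had UMIs in 3 of 17, 4 of 24 and 12 of 51 members. Tcf7 was at 0 in cDC1, and the difference passed the test (7.24 ± 1.14, edgeR adjusted p = 2.11e-05). The NK marker Klrd1, a lectin-like receptor chain, was also higher than in cDC1 (4.22 ± 0.81, edgeR adjusted p = 1.90e-04), with UMIs in 3, 3 and 2 members, and did not pass against the cDC2 gate (-0.33 ± 0.36, adjusted p = 0.59). The part of these other cells' RNA in the results was not tested.

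Members of the SLE123 and AngII libraries were then set beside the control members. Both contrasts use the same 17 control cells. The sums weight each member by its UMIs, and some of the deepest members carried few marker UMIs. In the AngII library, members of 8505, 11682, 6446 and 8652 UMIs, out of 83256 in all, had 0 or 1 UMI of Ccr7. Apart from Fscn1 and Ccr7 they had no UMI of a marker. Of the 6 markers, the control member of 5096 UMIs (of 34862) and the SLE123 member of 9117 (of 121146) had Fscn1 alone. Another SLE123 member, of 9065 UMIs, had 2 UMIs of Fscn1, 1 of H2-M2 and 0 of Ccr7. The same sums entered the class comparisons above. The weight of these cells in the ratios and in those comparisons was not tested. A gene was called past 2-fold with at least 20 UMIs over both libraries, and 140 of 1030 genes were higher in SLE123 members (13.6%) and 83 lower (8.06%). In AngII members 63 of 720 were higher (8.75%) and 80 lower (11.1%). The median log2 ratio over these genes was 0.04 and -0.03. The interval of the ratio lay above 0 for 88 genes and below 0 for 90 in SLE123 members, and above 0 for 86 and below 0 for 88 in AngII members. Of the genes past 2-fold, 8 that were higher and 1 that was lower in SLE123 members also passed 2-fold in the same direction in all other kept cells, and 4 and 0 did so for AngII.

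The strongest SLE123 differences were found outside the members too. Ftl1-ps1, named as a pseudogene of the ferritin light chain gene and annotated as protein coding, may share reads with near-identical copies. It had 509 UMIs in 47 of 51 SLE123 members and 2 UMIs in 2 of 17 control members (log2 ratio 6.19, interval 4.33 to 9.24). Its log2 ratio was 4.59 in all other kept cells, 5.23 in cDC1 and 6.08 in the cDC2 gate. Ifitm2, an interferon-induced membrane gene, had 185 UMIs in 38 SLE123 members against 2 (4.73, 2.86 to 7.79), with 4.01 in all other kept cells. With cells of up to 1 UMI of Cd79a and Cd3e let in, the Ifitm2 ratio was 2.42. Gm42031, an annotated lincRNA, had 76 against 1 (4.45, 1.93 to 9.77), with 2.82 in all other kept cells. In AngII members Gm42031 had 36 UMIs in 12 cells (3.91, 1.34 to 9.26), with 1.92 in all other kept cells.

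Plac8, Gclc and Glipr2 had larger ratios in the members than in all other kept cells, a difference that was not tested. Those other cells are mostly B cells. Ratios set beside them, here and below, therefore do not tell whether other dendritic cells differed in the same way. Plac8, a small cysteine-rich protein gene, had 47 UMIs in 9 SLE123 members, 20 of them in 1 cell, against 1 (log2 ratio 3.76, 1.21 to 9.09), with 0.17 in all other kept cells. Gclc, a glutathione synthesis enzyme, had 29 in 12 members against 1 (3.06, 0.47 to 8.41), with -0.05 in all other kept cells, but with cells of up to 1 UMI of Cd79a and Cd3e let in its ratio was -2.06. Glipr2 had 63 UMIs in 23 SLE123 members and 0 in the controls (at least 6.04-fold higher in SLE123), with a log2 ratio of -0.14 in all other kept cells. It was chosen after its values were seen.

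Lower in SLE123 members were Kctd12, with 7 UMIs against 15 in the control (log2 ratio -2.90, -4.43 to -1.51, with -0.40 in all other kept cells), and Dock8, an exchange factor for dendritic cell migration, with 8 against 15 (-2.70, -4.15 to -1.37). Its relative Dock2, of the same cytoskeletal list, went the other way (log2 ratio 2.8). Dock2 had 24 UMIs in 15 of 51 SLE123 members against 1 UMI in 1 of 17 control members. Tnfrsf1b, a TNF receptor, had 13 UMIs in SLE123 members against 22 in control members (-2.56, -3.67 to -1.50) and 9 in AngII members (-2.55, -3.85 to -1.37). Without hashtag C0304 its SLE123 ratio was -4.89. Gnl2 and Bmt2 had ratios of -2.53 and -2.38. Each of the 5 lower genes had a ratio between -0.40 and -0.02 in all other kept cells, which are mostly B cells.

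In AngII members Psap, the precursor of the saposins that activate lysosomal lipid hydrolases, had 127 UMIs in 20 of 24 cells against 10 in 7 of 17 control cells (log2 ratio 2.41, 1.48 to 3.51), with -0.16 in all other kept cells. With cells of up to 1 UMI of Cd79a and Cd3e let in, the ratio was 0.23. SLE123 members had 134 UMIs of Psap in 39 of 51 cells. Cfp, the complement factor properdin, had 26 UMIs in 3 AngII members, 16 of them in 1 cell (3.44, 0.84 to 8.80). Cd37, a tetraspanin, had 23 in 4, 11 of them in 1 (3.27, 0.65 to 8.63). Hspa1b, a heat shock gene, had 33 UMIs in 9 AngII members against 2 (2.79, 0.82 to 5.89), with 1.46 in all other kept cells.

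Lower in AngII members were the transcription factor Klf6 (6 UMIs against 19, -2.92, -4.53 to -1.54), Kmt2e (6 against 16, -2.67, -4.31 to -1.24), the cytokine receptor chain Csf2rb (6 against 16, -2.67, -4.31 to -1.24) and the adaptor Fyb (8 against 20, -2.58, -3.97 to -1.33). Klf6 had 43 UMIs in 13 SLE123 members (-0.62, -1.43 to 0.24). With cells of up to 1 UMI of Cd79a and Cd3e let in, the Fyb ratio was -0.84.

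**Figure D5:**
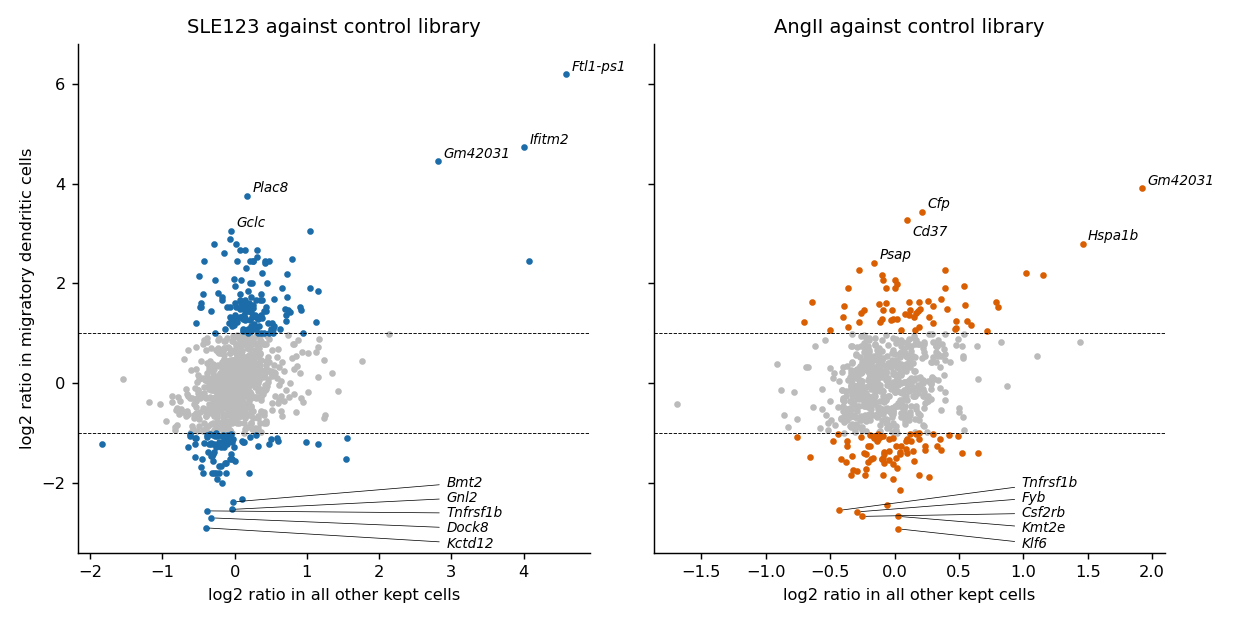
Each point is a gene with at least 20 UMIs over both libraries, 1030 on the left and 720 on the right. The y axis gives the log2 ratio to the control library in the members and the x axis the same ratio in all other kept cells, and dashed lines mark 2-fold. Ftl1-ps1, Ifitm2 and Gm42031 are high on both axes, whereas Plac8, Cfp and Psap are high on the y axis alone.

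Over all genes with enough UMIs, 13.6% were past 2-fold higher and 8.06% lower in SLE123 members, and 8.75% and 11.1% in AngII members. By list, the maturation genes had a median log2 ratio of 0.09 in SLE123 members (4 of 21 past 2-fold higher and 2 lower) and -0.56 in AngII members (1 of 18 higher and 5 lower). Ccl5 had a ratio of -0.63 in SLE123 members (-0.81 to -0.44) and -1.07 in AngII members (-1.28 to -0.86), where 1 control member gave 117 of the 357 control UMIs. It was also lower in all other kept cells, by -0.66 and -0.76. Fabp5 had -0.16 (-0.47 to 0.17) and -1.73 (-2.16 to -1.29). The NF-κB list had medians of -0.46 and -0.97, with 1 higher and 1 lower of 13 in SLE123 members and 0 higher and 5 lower of 11 in AngII members (Rel, Tnfaip3, Cflar, Traf1 and Birc2). The deep AngII members with few marker UMIs, named above, enter the maturation and NF-κB sums, and their part was not tested. Relb had ratios of -0.46, with an interval that includes 0, and -0.85 (-1.47 to -0.22). The class I list had medians of 0.03 and -0.32 and the class II list 0.01 and 0.33, with H2-Q7 as the one gene of either list past 2-fold, lower in AngII members.

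Of 8 interferon response genes with enough UMIs, 3 were past 2-fold higher in SLE123 members, where 13.6% of all genes were higher and 8.06% lower. Isg15, a ubiquitin-like modifier, had 37 UMIs in 20 of 51 members against 2 UMIs in 1 of 17 (log2 ratio 2.41, 0.46 to 5.51), with 0.42 in all other kept cells. Bst2, or tetherin, had 52 UMIs in 24 members against 4 in 4 (1.90, 0.46 to 3.83), with 0.66 in all other kept cells. Ly6e had 85 UMIs in 14 members, 26 of them in 1 cell, against 7 in 2 (1.81, 0.70 to 3.16). Usp18 and Ifi27l2a were past 2-fold lower and the median of the 8 was 0.12, so the list did not move as 1 group.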

How the data were processed

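Splenocyte RNA was measured by 10x Genomics 5′ single-cell sequencing in 3 libraries. The files as deposited by the authors hold unnormalized UMI counts for genes and hashtags. Their headers name Cell Ranger 6.0.0, and the submitters' processing notes name mm10. The matrices listed 32285 genes and 6 hashtags. Barcodes with 201 to 3499 genes, under 15% mitochondrial UMIs and a top hashtag at least 3 times the second were kept. The hashtag rule removed doublets between hashtags, and doublets within 1 hashtag were not sought with a caller. Hashtags were not mapped to conditions by the labels, so treatment with 2HOBA was not analysed here.

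UMI counts were summed per library and class and tested with edgeR 4.0.16 in R 4.3.3 (TMM, filterByExpr, glmQLFit and glmQLFTest, library as block, Benjamini-Hochberg, adjusted p under 0.05). Libraries were compared without a test, as log2 ratios of CPM (per 1000000 UMIs) with exact conditional 95% intervals, and shares with Clopper-Pearson 95% intervals, which cover counting error only. Genes at 0 in 1 class were set against a floor of 3 counts over the group. Both procedures were run on simulated counts, drawn without single cells that dominate a sum. For the intervals the counts came from the Poisson distribution that the intervals assume. That run therefore cannot show how they behave where 1 cell gives most UMIs. Alternatives were DESeq2 1.42.0, other filters and scalings, the study's barcode limits read as UMIs, other gate settings, and each library or hashtag left out. Named genes were the 10 highest and 10 lowest fold changes against cDC2, 5 and 5 against cDC1 and 5 and 5 per library contrast, with immunoglobulin and T cell receptor segments, Xist, Y-linked and gate genes left out, plus the genes of the lists. Some genes that the rule named are not reported here. Members and lists were chosen with earlier results of these data known. Promoters are from RefSeq (GRCm38.p6).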

Additional observations from a re-analysis of the deposited data

How the results depend on the processing

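Thinned to 1000 UMIs per cell, the SLE123 share was 0.176%. With DESeq2, 220 genes were higher and 145 lower than in the cDC2 gate, and 211 and 98 against cDC1. With the barcode limits read as UMIs these were 113 and 186, and 139 and 79. The stricter cDC2 gate, added after the data were seen, gave 248 and 141. Leaving out 1 library at a time gave 102 to 410 genes higher and 45 to 302 lower than in the cDC2 gates, and 178 to 340 and 81 to 216 against cDC1, each lowest without the SLE123 library. Leaving out 1 hashtag gave shares of 0.0736 to 0.124% (control), 0.154 to 0.19% (AngII) and 0.252 to 0.324% (SLE123), and log2 share ratios of 1.23 to 1.98 (SLE123) and 0.47 to 1.22 (AngII). For SLE123 members, counts higher and lower were 87 and 48 with limits read as UMIs, 330 and 279 at 10 UMIs or more and 40 and 8 at 50 or more, and 101 to 157 and 60 to 92 without 1 hashtag. For AngII members they were 196 and 262 at 10 UMIs or more and 13 and 15 at 50 or more, 108 higher with up to 1 UMI of Cd79a and Cd3e, 46 lower with limits read as UMIs, 53 lower with TMM scaling, and 41 to 89 and 45 to 93 without 1 hashtag (41 higher without AngII C0301, 45 lower without control C0306 and 46 without AngII C0306). The Gclc ratio reversed to -2.06 and the Ifitm2 ratio was 2.42 with up to 1 UMI of Cd79a and Cd3e. Tnfrsf1b in AngII members was -4.49 with limits read as UMIs and -3.94 without AngII C0303. The cause was not tested beyond the fewer genes or cells these settings leave. Of the recomputed summaries, 211 were labelled the same and 36 moved. The same meant within a set fold of the main count, or inside the main interval of a share or share ratio. Of the recomputed values for named genes, 823 were labelled the same, 6 moved, 2 were weaker and 1 reversed. No paired analysis was possible because each group holds 1 library, for the contrasts between libraries. The class comparisons had library as a block, and without it gave 286 genes higher and 240 lower than in the cDC2 gate and 298 and 218 against cDC1. With 17 control members, 1 or 2 control UMIs set most of the large ratios.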

Other observations

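Cells with UMIs of 3 or more of 18 cell cycle genes numbered 0 of 17 control members, which at 3 counts allows a share of up to 17.6% (exact 95% upper limit 19.5%), 3 of 24 AngII members (12.5%, interval 2.66 to 32.4) and 3 of 51 SLE123 members (5.88%, 1.23 to 16.2). In the cDC2 gate, which was deeper per cell, the shares were 14.5%, 16.4% and 16.7%, and in cDC1 14.8%, 16.7% and 9.68%. The 18 genes summed to 287, 973 and 1057 CPM in the members, 788, 592 and 839 CPM in cDC1 and 2290, 795 and 1622 CPM in the cDC2 gate. Single cells gave much of the member sums. For Hmgb2, 1 AngII member gave 13 of 18 UMIs and 1 SLE123 member 26 of 43. For Stmn1, 1 AngII member gave 13 of 14. Against the cDC2 gate 1 of 9 tested was lower, against the stricter cDC2 gate 3 of 7 tested were lower, and against cDC1 neither of the genes tested, Stmn1 and Hmgb2, passed.

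Of 20 cholesterol and lipid genes, Idi1, an enzyme of the isoprenoid pathway, was higher than in cDC1 (143, 108 and 190 CPM against 20, 26.2 and 3.96 CPM, log2 fold change 3.20 ± 0.63, edgeR adjusted p = 2.95e-04) and was higher in all 3 comparisons. Its 5 control UMIs came from 1 member. Apoe was lower than in the cDC2 gate (-2.79 ± 0.47), and its 168 CPM in AngII members stood beside 0 in the other libraries. Among interferon response genes, Gbp2, a guanylate-binding GTPase, stood at 115, 168 and 116 CPM against 6.68, 5.24 and 0 CPM in cDC1 (4.95 ± 0.85, edgeR adjusted p = 5.21e-05), whereas Ly6e had 7, 46 and 85 UMIs in members, with 553 and 702 CPM in the AngII and SLE123 libraries, against 1996, 1806 and 2485 CPM in cDC1 (-2.08 ± 0.28, adjusted p = 1.86e-06). Of 18 Toll-like receptor genes and adaptors, 2 were tested against cDC1 and both were lower, Tlr11 (-2.76 ± 0.65) and the trafficking chaperone Unc93b1 (-0.94 ± 0.27).

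Of 18 genes that the study examined in myeloid cells, none was higher than in cDC1 and 5 of 10 tested were lower, among them Lyz2, C1qa, C1qb and C1qc, macrophage genes that the cDC1 gate also held. Against the stricter cDC2 gate 4 of 8 tested were lower and 0 higher. In the library contrasts 3 of them had enough UMIs, H2-Aa, Spi1 and Coro1a, and none passed 2-fold in either.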
